A study of Homo sapiens with 6 samples.

Results

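The receptors and ligands of the EGFR family were examined in MDA-MB-231 cells, a human line established from a TNBC, after knockdown of the coregulator PELP1. The genes were chosen by symbol from the count tables: the receptors EGFR, ERBB2 and ERBB3 and the ligands AREG, EREG, HBEGF, TGFA, BTC and NRG1, which are 9 of the 23228 genes listed. RNA-seq was done on 3 libraries of cells stably expressing a control shRNA without a target and on 3 libraries of cells stably expressing a PELP1 shRNA (PELP1-KD). All cells carried a lentiviral construct, were selected with puromycin and were grown in RPMI medium with serum. A single PELP1 shRNA was used, so effects of PELP1 loss and of this construct cannot be told apart. The sources used here do not say whether the 3 libraries of a group came from separate cultures, so p-values measure only the spread between these libraries, which may be technical.

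The family passes growth signals across the cell membrane. Its ligands are made as membrane-bound precursors, are shed by metalloproteases, and bring receptors together in pairs that phosphorylate each other and start the RAS-ERK and PI3K cascades. TGFA, HBEGF, AREG, EREG and BTC bind EGFR, NRG1 binds ERBB3 and ERBB4, and ERBB2 has no ligand of its own and serves as a partner. EGFR is commonly expressed in TNBC.

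Counts on genes summed to between 17304864 and 23132102 per library. Expression is given in CPM, the counts scaled to the library size after TMM normalization, and 3 counts, taken as the floor of detection, correspond to between 0.13 and 0.173 CPM before that scaling. Each of 12796 genes was tested in edgeR by the quasi-likelihood method, p-values were adjusted by Benjamini-Hochberg, and a gene was called at an adjusted p-value below 0.05. PELP1 had 57.2, 56.1 and 60.2 CPM in the control libraries and 28.6, 29.9 and 30.2 CPM in the PELP1-KD libraries. Every PELP1-KD library was below every control library, and the log2FC was -0.97 (SE 0.0552, edgeR adjusted p-value 1.48e-11). In a two-sided exact permutation test of its CPM the p-value was 0.1, the smallest that 3 libraries against 3 allow.

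The cells were checked against markers of the line. VIM, CD44, AXL, MSN and CAV1, which mark mesenchymal-like cells, summed to between 5941 and 6025 CPM in the control libraries and between 5010 and 5074 CPM in the PELP1-KD libraries, with VIM the most abundant. Of these 5 genes, 4 were called lower and 1, MSN, was not called. The log2FC was -0.55 for CD44 (edgeR adjusted p-value 8.62e-13), -0.30 for CAV1, -0.21 for VIM and -0.13 for AXL. The hormone receptor genes ESR1 and PGR and the epithelial cadherin CDH1 had at most 4 counts in any library, and KRT5 had 0. EPCAM, an epithelial surface marker, was between 8.62 and 11.2 CPM. Of the luminal list of 7 genes, which summed to between 104 and 122 CPM in the control libraries and between 64.5 and 72.4 CPM in the PELP1-KD libraries, KRT19 was the most abundant. KRT19 had a log2FC of -0.95 (edgeR adjusted p-value 1.53e-10). FOXA1, at under 2 CPM, had 11, 26 and 20 counts in the control libraries and 7, 0 and 5 in the PELP1-KD libraries. It passed the filter on low counts only through the control libraries, so no fold is given for it. ESR1, PGR and CDH1 of this list were at or near 0. GATA3 had 7.33, 7.17 and 6.42 CPM in the control libraries and 8.05, 8.11 and 8.07 CPM in the PELP1-KD libraries, and EPCAM had a log2FC of 0.03. Neither was called (edgeR adjusted p-values 0.107 and 0.849), and the groups did not overlap for GATA3. The 5 fibroblast markers summed to 5.32, 7.13 and 5.29 CPM in the control libraries and 18.01, 20.11 and 17.25 CPM in the PELP1-KD libraries. Nearly all of this was COL1A1, which rose, while DCN had 0 counts and COL1A2, LUM and PDGFRA had at most 6 counts in any library. The 3 endothelial markers summed to at most 1.17 CPM. VWF among them had 1, 6 and 0 counts in the control libraries and 12, 20 and 16 in the PELP1-KD libraries. It passed the filter only through the PELP1-KD libraries, and its control mean was under the floor of detection, so no fold is given. Of the leukocyte markers, CD14 was at most 0.75 CPM in any library and PTPRC had 0 counts. The part of these markers in the results below was not tested, and in bulk RNA fewer cells of a type and less RNA per cell cannot be told apart.

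Among the 9 genes, 4 were called lower in PELP1-KD cells and 0 higher, while 24.2% of all tested genes were called lower (3103) and 22.7% higher (2904). With scaling by library totals the split over all genes was 2418 lower and 3817 higher, and 4 family genes were lower and 1, HBEGF, higher. The 4 were the receptor EGFR and the ligands TGFA, NRG1 and EREG. The receptors ERBB2 and ERBB3 and the ligand HBEGF were tested and not called. Their unadjusted p-values were 0.191, 0.497 and 0.131, and DESeq2 and voom called none of these higher either. DESeq2 called 3 family genes lower, without EREG (adjusted p-value 0.0983). The ligands BTC and AREG had too few reads for the test. With a log2FC beyond 1 required as well, 1 gene remained, TGFA, and by this rule 1.34% of the tested genes were lower and 1.9% higher. The median log2FC of the 7 tested genes was -0.26, and that of all tested genes was 0.0014. The groups did not overlap in CPM for 6 of the 9 genes (EGFR, HBEGF, TGFA, NRG1, EREG and BTC). They did not overlap for 55% of all tested genes, a share that leaves out BTC and AREG, which were not tested. BTC was at or under the floor of 3 counts in every PELP1-KD library.

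**Figure D1:**
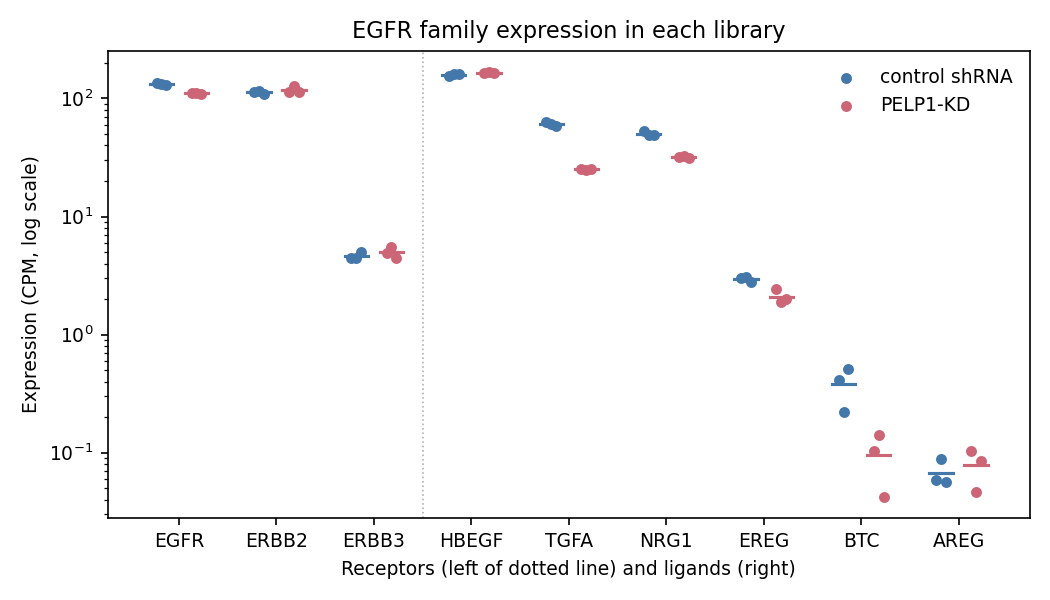
Expression in CPM (log scale) of the 3 receptors and 6 ligands in each library, with control libraries in blue, PELP1-KD libraries in red and the mean of each group as a bar. TGFA and NRG1 show the widest gaps among the well-expressed genes, ERBB2 and ERBB3 overlap between the groups, and AREG and BTC lie under 1 CPM.

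EGFR encodes the receptor that gives the family its name, and lies on the plus strand of chromosome 7 at chr7:55019021-55211628 in GRCh38. Its counts were 2274, 3013 and 2307 in control libraries 1, 2 and 3 and 2176, 2358 and 2575 in PELP1-KD libraries 1, 2 and 3. After scaling these were 134, 133 and 130 CPM in the control cells and 112, 110 and 109 CPM in PELP1-KD cells. The groups did not overlap, and the whole spread within each was about 2 to 5 CPM. The mean fell by 16.5%, a log2FC of -0.26 (SE 0.038, 95% interval from -0.34 to -0.18, edgeR adjusted p-value 1.07e-05). A change of this size is common here, since 32.6% of all tested genes had a log2FC farther from 0.

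ERBB2 encodes the partner receptor known as HER2, at chr17:39687914-39730426 on the plus strand. It had 114, 115 and 109 CPM in the control libraries and 112, 128 and 114 CPM in the PELP1-KD libraries. PELP1-KD library 2 was the highest, and the others of that group lay within the control range. The log2FC was 0.06, with a 95% interval from -0.03 to 0.16 (edgeR adjusted p-value 0.279). Without PELP1-KD replicate 2 the log2FC of ERBB2 was 0.0044. The exons of ERBB2 overlap those of PGAP3 and of MIEN1 on the opposite strand. The counting is not stated to use strand. Whether reads from these overlaps were assigned to a gene or set aside as ambiguous is therefore not known. MIEN1, listed in the tables as C17orf37, had 45.1 CPM in control cells and 53.2 CPM in PELP1-KD cells, a log2FC of 0.24 (edgeR adjusted p-value 5.70e-04). PGAP3 had 9.63 CPM in control cells and 8.05 CPM in PELP1-KD cells and was not called (adjusted p-value 0.0732).

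ERBB3 encodes a receptor that binds neuregulins and has little kinase activity of its own, at chr12:56076799-56103505 on the plus strand. It was expressed at a low level, with 4.49, 4.49 and 5.01 CPM in the control libraries and 4.93, 5.53 and 4.46 CPM in the PELP1-KD libraries. The groups overlapped, and the log2FC was 0.09, with a 95% interval from -0.18 to 0.37 (edgeR adjusted p-value 0.593). Changes within this interval could not be told from 0, and it does not reach the log2FC of EGFR, -0.26. With each library left out in turn, the log2FC of ERBB3 lay between 0.0079 and 0.17. Between the receptors, the number of EGFR reads per ERBB2 read was 1.18, 1.15 and 1.19 in the control libraries and 0.994, 0.865 and 0.962 in the PELP1-KD libraries. This ratio was lower in every PELP1-KD library than in any control library. It is a ratio of reads, which depends on gene length.

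TGFA encodes transforming growth factor alpha, a ligand of EGFR, and lies at chr2:70447280-70554193 on the minus strand. Its counts were 1061, 1375 and 1033 in control libraries 1, 2 and 3 and 488, 531 and 594 in PELP1-KD libraries 1, 2 and 3. Expression was 62.7, 60.5 and 58.2 CPM in the control libraries and 25.0, 24.9 and 25.2 CPM in the PELP1-KD libraries. The PELP1-KD libraries lay within 1 CPM of each other and far under every control library. The mean fell by 58.6%, a log2FC of -1.27 (SE 0.0554, 95% interval from -1.39 to -1.16, edgeR adjusted p-value 2.11e-13). Only 0.766% of the tested genes had a lower log2FC, and for PELP1 itself this share was 1.42%.

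NRG1 encodes neuregulin 1, the ligand of ERBB3 and ERBB4. It had 53.4, 48.9 and 49.2 CPM in the control libraries and 32.1, 32.8 and 31.5 CPM in the PELP1-KD libraries. Control library 1 was the highest, and no PELP1-KD library came near the control range. The mean fell by 36.4%, a log2FC of -0.65 (SE 0.0564, 95% interval from -0.77 to -0.53, edgeR adjusted p-value 8.93e-09). Among all tested genes, 3.27% had a lower log2FC.

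HBEGF encodes heparin-binding EGF-like growth factor, a ligand of EGFR and ERBB4 that is also the cell-surface receptor for diphtheria toxin. It lies at chr5:140332843-140346631 on the minus strand. Its expression was 155, 161 and 162 CPM in the control libraries and 164, 168 and 165 CPM in the PELP1-KD libraries. The groups did not overlap, but the highest control library and the lowest PELP1-KD library were about 2 CPM apart. The log2FC was 0.06, with a 95% interval from -0.02 to 0.13, and did not pass the test (edgeR adjusted p-value 0.206). With scaling by library totals, which moves the median of all tested genes to 0.051, the log2FC of HBEGF was 0.11 and was called (adjusted p-value 0.0194).

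EREG encodes epiregulin, a low-affinity ligand of EGFR, at chr4:74365143-74388751 on the plus strand. Its counts were 51, 70 and 50 in control libraries 1, 2 and 3 and 47, 40 and 47 in PELP1-KD libraries 1, 2 and 3. Expression was 3.02, 3.08 and 2.82 CPM in the control libraries and 2.41, 1.88 and 2.00 CPM in the PELP1-KD libraries, without overlap. The log2FC was -0.51 (SE 0.173, 95% interval from -0.87 to -0.15, edgeR adjusted p-value 0.0192). This call was lost in DESeq2 (adjusted p-value 0.0983) and without control replicate 2 (0.0645), PELP1-KD replicate 2 (0.0757) or PELP1-KD replicate 3 (0.0643). In these 4 fits the log2FC of EREG was -0.51, -0.48, -0.44 and -0.48. Over all 13 alternatives the adjusted p-value lay between 0.016 and 0.0983.

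BTC, the gene of the EGFR and ERBB4 ligand betacellulin, had 7, 5 and 9 counts in the control libraries and 2, 3 and 1 counts in the PELP1-KD libraries. It did not pass the filter on low counts. The ratio of the pooled counts, PELP1-KD over control, was 0.255, with an exact 95% interval from 0.0841 to 0.653 that covers counting error alone. When the filter was left out, the log2FC was -1.91 (edgeR adjusted p-value 0.0205). Every PELP1-KD count of BTC was at or under the floor of 3 counts, with a mean of 0.0952 CPM. The size of its fall is therefore uncertain.

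AREG, the gene of amphiregulin, had 1 or 2 counts in each of the 6 libraries, under the floor of 3 counts, so no change is given. This value is uncertain for a technical reason. The submitters' processing notes name the build hg19, which carries AREGB, a near-identical copy of AREG, and HTSeq leaves out reads that align at several places. The line for such reads held 32.5% to 32.9% of all counts of each library, and it may hold a read more than once. The tables list no AREGB, and RefSeq on GRCh38 gives it as a synonym of AREG. In the GENCODE transcripts on GRCh38, where there is no second copy, 0 of the 1645 windows of 50 bases in AREG transcripts occurred in another gene. For the other 8 genes this share was at most 0.328%, in ERBB3. Whether AREG reads were lost to the copy was not tested.

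EREG, AREG and BTC lie in a ligand cluster on chromosome 4, together with EPGN, which encodes epigen. In GRCh38, EPGN is at chr4:74308473-74315307, AREG at chr4:74445134-74455009 and BTC at chr4:74744759-74794686, with BTC alone on the minus strand. EREG lies 56.4 kb from AREG, and AREG lies 290 kb from BTC. Within the cluster, EREG was at about 3 CPM in control cells, BTC was under 1 CPM and EPGN had 0 counts in all 6 libraries, while the level of AREG is uncertain as given above. EREG and BTC had lower values in all PELP1-KD libraries than in any control library, with BTC at or under the floor of detection in PELP1-KD cells.

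**Figure D2:**
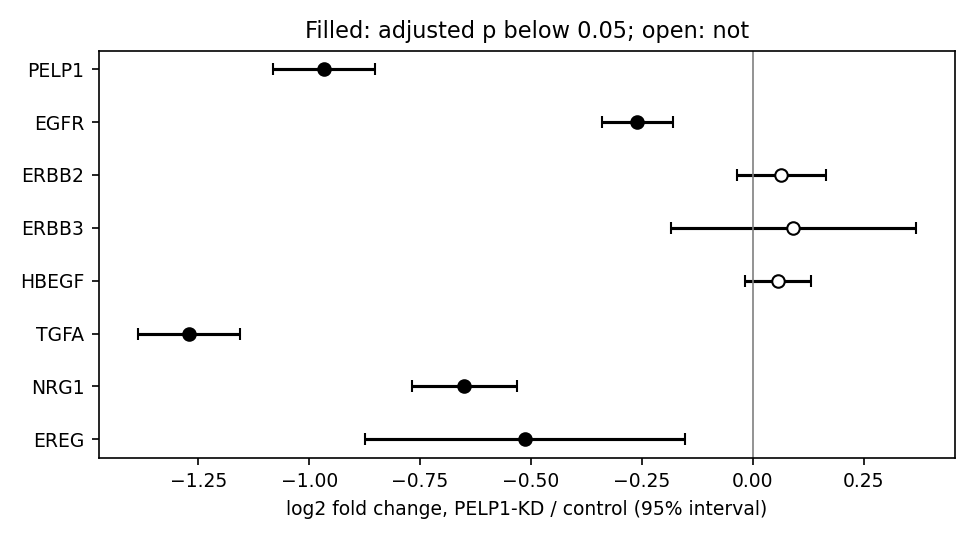
log2FC of PELP1 and of the 7 tested EGFR family genes, PELP1-KD over control, with 95% intervals from edgeR. Filled points passed an adjusted p-value of 0.05. The interval of TGFA ends at -1.16, under that of every other family gene, and the intervals of ERBB2, ERBB3 and HBEGF include 0.

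The remaining family genes were listed at or close to 0 apart from EGF. The gene of the founding ligand EGF had 1.89, 1.32 and 1.24 CPM in the control libraries and 1.95, 1.64 and 2.38 CPM in the PELP1-KD libraries. These groups overlapped, with a log2FC of 0.45 and an adjusted p-value of 0.11 from edgeR. The receptor gene ERBB4 had 1 count in 1 control library and 0 in the other 5 libraries. NRG2 had at most 2 counts in any library, NRG4 had 1 count in a single control library, and NRG3 had 0 counts in all libraries.

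To compare levels between genes, RPKM was computed as CPM divided by the length in kb of all exons of a gene in GENCODE. HBEGF had the highest level of the family in every library, with 52.7 RPKM ± 1.28 (SD, n = 3) in control cells and 54.8 RPKM ± 0.67 (SD, n = 3) in PELP1-KD cells. In control cells it was followed by TGFA at 12.2 RPKM ± 0.459, ERBB2 at 10.9 RPKM ± 0.332, EGFR at 10.6 RPKM ± 0.182 and NRG1 at 4.45 RPKM ± 0.224 (SD, n = 3 each). The ranges of ERBB2 and EGFR overlapped, and so did those of EREG and ERBB3, both at about 0.52 RPKM. In PELP1-KD cells ERBB2 came second at 11.4 RPKM, then EGFR at 8.83 RPKM and TGFA at 5.05 RPKM, with ranges that did not overlap. TGFA thus moved from above both receptors to below both. With the longest coding transcript as the length, TGFA was at 14.0 RPKM in control cells, under ERBB2 at 23.5 RPKM and overlapping EGFR at 13.5 RPKM, and in PELP1-KD cells it was again under both.

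The summed level of the 6 ligands was 69.3, 70.5 and 70.3 RPKM in the control libraries and 62.6, 63.8 and 63.0 RPKM in the PELP1-KD libraries. HBEGF made up 75.2% ± 1.16 of this sum in control cells and 86.8% ± 0.204 in PELP1-KD cells (SD, n = 3). The share of TGFA was 17.4% ± 0.79 and 7.995% ± 0.12, and that of NRG1 was 6.36% ± 0.381 and 4.49% ± 0.0691 (SD, n = 3). The ligand pool was thus smaller in PELP1-KD cells by a few RPKM, and HBEGF, whose own level was not called different, took a larger share of it. There were 0.381 TGFA reads per HBEGF read in control cells (SD 0.0232, n = 3) and 0.152 in PELP1-KD cells (SD 0.00254, n = 3). With lengths of coding transcripts the share of HBEGF was 74.0% in control cells and 85.5% in PELP1-KD cells. Without scaling by length, the ligands summed to 273 CPM in control cells and 225 CPM in PELP1-KD cells. The share of HBEGF in that sum was 58.2% and 73.6%. AREG enters these sums at 1 or 2 counts, with the uncertainty given above.

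**Figure D3:**
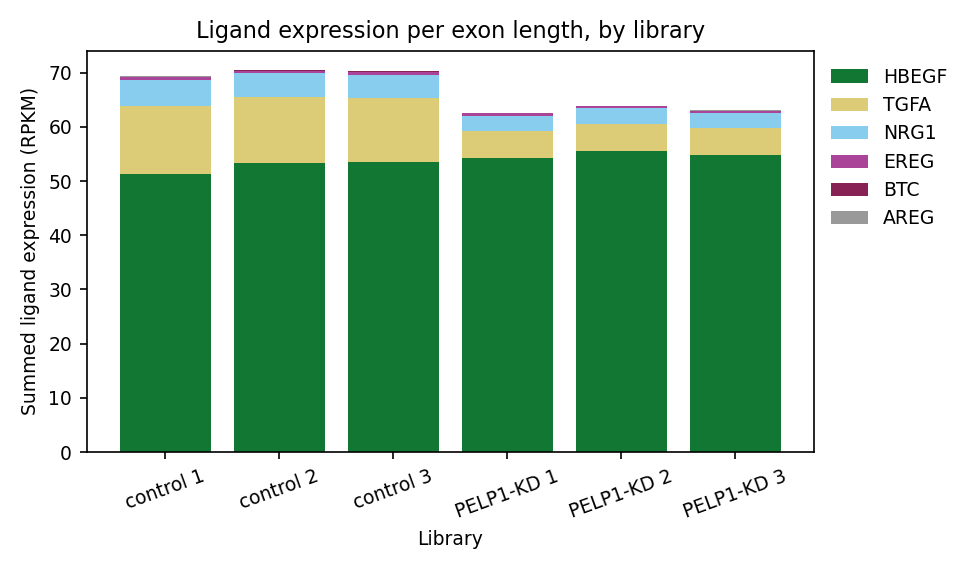
Summed ligand expression in RPKM in each library, divided by ligand, with bars starting at 0. The control libraries reach between 69.3 and 70.5 RPKM and the PELP1-KD libraries between 62.6 and 63.8 RPKM, with a thinner TGFA segment and an HBEGF segment of similar height.

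Promoter sequences from RefSeq were matched for 7 of the 9 genes, and ERBB3 and NRG1 had none in the table. Those of TGFA, EREG and EGFR are shown because these genes were called lower, and that of HBEGF because it is the most abundant ligand and was not called. TGFA and EGFR have more than a single start there, and the most upstream was used. Of the 250 bases before the RefSeq start, each sequence is the part from position -250 up to the first GENCODE exon of the gene, written 5′ to 3′ on the strand of the gene in build GRCh38.p14. It ends at position -1 in EGFR, -3 in EREG and -29 in HBEGF. In TGFA it ends at position -190, since a GENCODE exon begins there, and it lies inside the GENCODE gene, downstream of another first exon, so it is not the sequence next to the start. They lie at chr2:70554016-70554076 (minus strand) for TGFA, chr4:74364895-74365142 (plus strand) for EREG, chr7:55018767-55019016 (plus strand) for EGFR and chr5:140346632-140346853 (minus strand) for HBEGF. Capitals mark matches, on either strand, to the GC box GGGCGG bound by SP1, the AP-1 word TGANTCA, the TEAD word GGAATG and the E-box CACGTG bound by MYC.
TGFA: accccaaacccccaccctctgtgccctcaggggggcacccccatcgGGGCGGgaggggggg
EREG: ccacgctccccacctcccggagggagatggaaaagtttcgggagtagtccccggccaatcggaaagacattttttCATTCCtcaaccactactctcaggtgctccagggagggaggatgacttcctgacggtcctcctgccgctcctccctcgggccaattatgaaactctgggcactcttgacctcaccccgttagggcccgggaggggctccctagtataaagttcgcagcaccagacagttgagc
EGFR: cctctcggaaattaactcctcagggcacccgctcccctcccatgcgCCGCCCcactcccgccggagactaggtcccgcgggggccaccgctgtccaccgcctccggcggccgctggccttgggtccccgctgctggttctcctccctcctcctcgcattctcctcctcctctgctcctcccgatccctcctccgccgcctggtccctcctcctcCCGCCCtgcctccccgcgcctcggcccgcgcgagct
HBEGF: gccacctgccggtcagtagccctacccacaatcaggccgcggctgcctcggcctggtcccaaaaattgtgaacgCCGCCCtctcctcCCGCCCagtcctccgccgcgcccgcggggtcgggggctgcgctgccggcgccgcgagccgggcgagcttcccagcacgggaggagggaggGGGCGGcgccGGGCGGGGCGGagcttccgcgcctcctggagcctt

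The capitals are GC boxes in TGFA (1 match), EGFR (2 matches) and HBEGF (5 matches, of which the last pair share a base), and a TEAD word in EREG. As the shown stretches differ in length, counts are given also for the full windows of 300 bases, where TGFA held 4 GC boxes, EGFR 3, HBEGF 5, AREG 1, BTC 1 and EREG and ERBB2 0. ERBB2 held 1 AP-1 word. The second start of EGFR held 2 AP-1 words and 1 TEAD word, and the second start of TGFA held none of the 4 motifs. The shown stretches are 77.0% G and C in TGFA, 73.6% in EGFR and 76.1% in HBEGF, against 58.1% in EREG. Over the full windows around all 35116 RefSeq starts in the table, 45.0% held a GC box, 14.0% the TEAD word, 7.71% the AP-1 word and 7.26% the E-box.

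By a rule on all tested genes, the genes whose pattern over the 6 libraries was most like that of TGFA were LPGAT1, FLI1 and ATAD1. Likeness was taken as the root mean square difference in log2 CPM after centring on the control mean, which was 0.0528, 0.0558 and 0.0627. LPGAT1 encodes an acyltransferase of phospholipid synthesis and had a log2FC of -1.24, FLI1 encodes an ETS transcription factor and had -1.40, and ATAD1 encodes an ATPase that extracts proteins from the mitochondrial outer membrane and had -1.18. FLI1 was expressed at under 2 CPM, and the other genes at about 100 CPM or more in control cells. The prior count of 2 used for log2 CPM shrinks differences at low counts, so the likeness of FLI1 depends in part on it.

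Genes that release and process the ligands are the metalloproteases, their regulators and related proteases, for which a list of 16 genes was used. Of these, 7 were called lower and 4 higher in PELP1-KD cells and 5 were not called, with a median log2FC of -0.11 against 0.0014 for all tested genes. The background shares are 24.2% and 22.7%. TIMP3, the inhibitor of ADAM17 and related proteases, had 45.8, 43.1 and 44.4 CPM in the control libraries and 15.5, 15.5 and 15.0 CPM in the PELP1-KD libraries. This was the largest change of the list, a log2FC of -1.53 (SE 0.063, edgeR adjusted p-value 7.78e-14). The metalloprotease gene ADAM8 fell by 0.95 and BACE1, whose protease cleaves neuregulin 1, fell by 0.82 on the log2 scale. FRMD8, whose product stabilises the complex of ADAM17 with its iRhom partners, rose from 30.8 CPM to 47.9 CPM, a log2FC of 0.63. The main sheddases were named after their values were seen. ADAM17, which sheds TGFA, AREG and HBEGF, had 80.7, 79.0 and 79.5 CPM in the control libraries and 56.9, 53.6 and 51.8 CPM in the PELP1-KD libraries, a log2FC of -0.56 (edgeR adjusted p-value 7.80e-09). Its groups did not overlap. ADAM10 had a log2FC of -0.08 and was not called (adjusted p-value 0.11).

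Adaptors carry the signal from the phosphorylated receptors, and 15 of 16 listed genes were tested, with VAV3 at 0 counts. Of these, 7 were called lower and 3 higher and 5 were not called, with a median log2FC of 0.02, against 24.2% lower and 22.7% higher over all tested genes. CRK, a binding partner of phosphorylated scaffolds, fell by 0.63 on the log2 scale, from 118 CPM to 76.6 CPM. SOS1 and SOS2, the exchange factors that load RAS with GTP, fell by 0.44 and 0.39 (edgeR adjusted p-values 7.92e-07 and 1.57e-06). GRB7, an adaptor of ERBB2, rose by 0.67 (adjusted p-value 0.0265) at a level of under 3 CPM. The adaptors GRB2 and SHC1, which link the receptors to SOS proteins, were named after their values were seen and were not called, each with a log2FC of 0.06.

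A list of 19 genes for the restraint and turnover of the receptors held genes of opposite effect, such as LRIG1, which lowers EGFR, and UBASH3B and the deubiquitinase gene USP8, which act on its degradation. Of the 19, 18 were tested and CBLC was at 0 counts. Of the tested genes, 6 were called lower and 1 higher, and 11 were not called, with a median log2FC of -0.09. The list thus had 38.9% of its tested genes called in either direction, against 46.9% of all tested genes (24.2% lower and 22.7% higher). LRIG1, a membrane protein that promotes EGFR degradation, had 63.2, 63.8 and 62.1 CPM in the control libraries and 37.8, 38.7 and 38.5 CPM in the PELP1-KD libraries. The log2FC was -0.72 (SE 0.05, edgeR adjusted p-value 2.89e-10), the largest of the list. UBASH3B, a phosphatase that slows EGFR degradation, fell by 0.60, PTPRJ, a receptor phosphatase acting on EGFR, fell by 0.29 and SH3KBP1, a CBL partner in receptor uptake, fell by 0.28 on the log2 scale.

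Genes induced by ERK, the kinase downstream of the receptors, were read from a list of 15. Of these, 9 were called lower and 4 higher and 2 were not called, with a median log2FC of -0.37, against 24.2% lower and 22.7% higher over all tested genes. The phosphatase gene DUSP4 had 115, 115 and 124 CPM in the control libraries and 43.6, 44.9 and 44.9 CPM in the PELP1-KD libraries, a log2FC of -1.40 (edgeR adjusted p-value 3.86e-15). EGR1, an immediate-early transcription factor, fell by 0.78 and SPRY2, an inhibitor of receptor signaling, fell by 0.64 on the log2 scale. IER3, a survival gene, moved the other way, from 491 CPM to 770 CPM, a log2FC of 0.65 (edgeR adjusted p-value 1.87e-12).

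**Figure D4:**
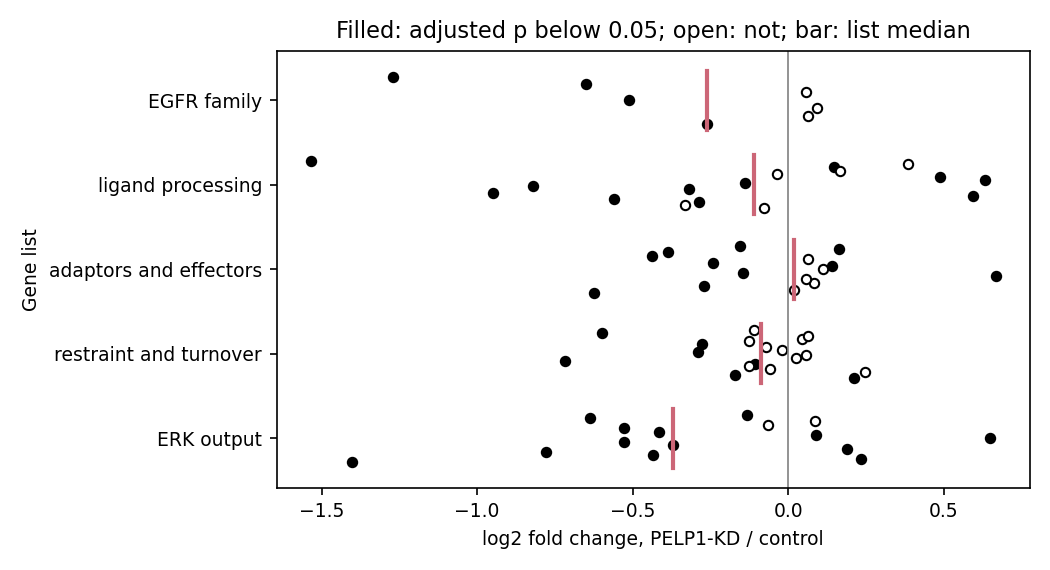
log2FC, PELP1-KD over control, of each tested gene of the EGFR family and of 4 lists around it, with filled points for an adjusted p-value below 0.05 and a red bar at the median of each list. Called genes lie on both sides of 0 in the 4 lists, and in the EGFR family they lie only below 0, apart from HBEGF when libraries are scaled by totals.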

How the data were processed

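Total RNA from MDA-MB-231 cells was made into stranded mRNA libraries and sequenced as single reads. The authors deposited whole-number counts per gene symbol for each library, without normalization. The submitters' processing notes name bcl2fastq, TopHat2, SAMtools, HTSeq and the build hg19. The use of strand in the counting and the annotation are not given in the sources used here. Closing lines that name no gene were left out of library sizes and tests. Of all counts including these lines, between 32.5% and 32.9% were for reads with several alignments, which may be entered more than once. Reads outside genes held between 7.63% and 8.2%, and ambiguous reads between 0.657% and 0.688%.

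Counts were filtered by edgeR's filterByExpr (minimum count 10), scaled by TMM and tested by the quasi-likelihood test of edgeR 4.0.16 in R 4.3.3 on 2 groups of 3 libraries, with Benjamini-Hochberg adjustment over all 12796 tested genes. Standard errors (SE) were derived from the log2FC and the F statistic. Log2 CPM used a prior count of 2. Exon lengths and coordinates come from GENCODE release 29 on GRCh38, not from the authors' build, and 96.3% of tested genes had a length. Libraries of a group were compared by chi-square over degrees of freedom, which was 1.47 to 4.11, and all were kept as separate samples.

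The test was checked on simulated counts with a log2FC of 1.5 in size for 200 genes and the same spread for every gene. All 200 were recovered, with 13 false calls among 12503 unchanged genes. This check does not cover smaller changes, such as those of EGFR, NRG1 and EREG. The alternatives were RLE factors, library totals, DESeq2 1.42.0, voom in limma 3.58.1, other filters, the replicate number as a block and leaving out each replicate. The coding-transcript length was added after seeing the data. Named are PELP1, all family genes, the 4 called genes with the largest log2FC of each list, and the 3 genes most like the best-supported called family gene of each direction. The members and lists were chosen with earlier results of these data known.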

Additional observations from a re-analysis of the deposited data

How the results depend on the processing

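No log2FC of PELP1 or of the 7 tested family genes changed sign under any of the 13 alternatives. PELP1, EGFR, TGFA and NRG1 were called under all 13, with a log2FC between -0.99 and -0.92 for PELP1, -0.27 and -0.21 for EGFR, -1.30 and -1.22 for TGFA and -0.68 and -0.60 for NRG1. ERBB2 and ERBB3 were called under none, with a log2FC between 0.0044 and 0.11 for ERBB2 and 0.0079 and 0.17 for ERBB3. EREG was called under 9 of 13, with a log2FC between -0.61 and -0.44 over all 13. Under library totals 1 family gene, HBEGF, was called higher, and the cause was not tested. With at least 10 counts required in every library, 12237 genes were tested in place of 12796. Of these, 134 were higher and 106 lower with a log2FC beyond 1, in place of 243 and 171. This filter leaves out every gene under 10 counts in any library, including genes that are low in a single group. Family genes called lower numbered between 3 and 4 with each replicate left out, 3 in DESeq2 and 5 without a filter, where BTC was added. The numbers 1 to 3 occur in both groups. Deviations of same-numbered libraries from their group means correlated at 0.039, 0.065 and -0.078, and those of other pairs at between -0.121 and 0.09. These values gave no sign of pairs by number. With 3 libraries per group, they cannot settle whether same-numbered libraries shared a culture or batch. With the replicate number as a block, 4 family genes were called lower and 0 higher, and of all genes tested 3335 were lower and 3140 higher. A fit of AREG summed with AREGB was not run because the tables hold no such gene. The interval on the pooled counts of BTC covers counting error only, and its PELP1-KD counts were at or under the floor of 3 counts. AREG, also at or under that floor, gives no fold at this depth.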
